A study of Mus musculus with 6 samples.

Results

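The Hes1 locus and the related Hes and Hey genes were examined in a ChIP-seq study of GLI3R, the repressor form of the Hedgehog effector GLI3. The regions described are all peaks whose summit lay within 300 kb of the mm10 interval of Hes1 or Opa1, or within 50 kb of Hes5, Hes6, Hey1, Hey2 or Heyl. There were 14 such peaks, all in the list from doxycycline-treated cells, of 8019 peaks in all, 3640 of them from treated and 4379 from untreated cells. The peaks were selected on the position of their summits in the lists, and the 7 genes were named with earlier results of these lists known, so the counts and values below are a description and carry no test.

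Cells were cardiac progenitors derived from mouse embryonic stem cells of the A2Lox.cre background, collected on day 6. All of them carried the GLI3R-FTA transgene, and so did the controls. The transgene is switched on by doxycycline and includes an Avi tag for pull-down with streptavidin. One group was left untreated and the other was given doxycycline at 500 ng/ml for 24 h from day 5. Each condition had 2 pull-down libraries and 1 input library, and 1 peak list was analysed per condition. No spread between replicates could therefore be given for any peak, and values from the lists describe those lists. Both groups come from 1 line, and no group without the transgene was analysed here. The peak lists hold no expression values, so the cardiac identity of the cells was not checked.

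Hes1 encodes a basic helix-loop-helix repressor that is a classic target of Notch signalling and keeps progenitors from differentiating. In the Notch pathway a cleaved receptor fragment joins the DNA-binding protein RBPJ and switches on HES and HEY genes, whose products recruit Groucho (TLE) corepressors. In some tissues Hes1 also responds to Hedgehog signalling. Opa1, the neighbouring protein-coding gene, encodes a GTPase of inner mitochondrial membrane fusion and is no relative of Hes1. HEY proteins, above all HEY1 and HEY2, act in heart and vessel development.

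The sequences under the peaks were not analysed here, and RefSeq promoters (GRCm38.p6, the assembly of mm10; 250 bases before to 50 after a gene's start) were matched for 4 of the 7 genes, Opa1, Hes5, Hes6 and Hey2. None of those 4 genes had a doxycycline peak at its promoter. The RefSeq promoters printed here are instead those closest to peaks of interest, and both were chosen after their values were seen. The first is that of 4632428C04Rik, a long non-coding RNA gene that begins just before the strongest peak of the Hes1 locus. Its 250 bases before the gene's start (chr16:30008417-30008666, plus strand) are shown with the letters of the GLI core in capitals. Between the end of this 250-base stretch and the peak lie 124 bases. The second is that of Tle2, a corepressor gene with a doxycycline peak across its start. Its 250 bases before the gene's start (chr10:81575037-81575286, plus strand) have the 99 bases under the peak in capitals.
4632428C04Rik: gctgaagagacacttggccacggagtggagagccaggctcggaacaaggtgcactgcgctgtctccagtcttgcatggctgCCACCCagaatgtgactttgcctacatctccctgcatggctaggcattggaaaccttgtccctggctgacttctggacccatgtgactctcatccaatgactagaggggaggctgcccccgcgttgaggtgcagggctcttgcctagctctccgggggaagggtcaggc
Tle2: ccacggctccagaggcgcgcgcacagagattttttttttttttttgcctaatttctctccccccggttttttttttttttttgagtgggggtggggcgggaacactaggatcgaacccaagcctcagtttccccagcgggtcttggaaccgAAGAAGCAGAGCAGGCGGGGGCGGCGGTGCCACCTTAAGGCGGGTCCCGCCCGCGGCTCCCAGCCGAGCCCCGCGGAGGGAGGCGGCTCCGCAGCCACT

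The 4632428C04Rik stretch holds 1 match to the GLI core GGGTGG, on the reverse strand. This 6-letter core, searched on both strands, was found in 28.1% of the same 250-base stretches of all 32851 promoters, so a match is common. It forms part of the longer GLI site TGGGTGGTC, found in 0.253% of full 300-base promoters. The full-length promoters of Opa1, Hes5, Hes6 (2 starts), Hey2, 4632428C04Rik and Tle2 had 0 matches to the longer site. The core was found once each in Opa1, 4632428C04Rik and Tle2 and in none of the others. The RBPJ letters TGGGAA, present in 25.6% of promoters, were found 2 times each in the Hes5 and Hey2 promoters and not in those of Opa1 or Hes6. The N box CACNAG, a HES-type site present in 42.5% of promoters, was found 2 times in 1 of the Hes6 promoters and 2 times in Tle2. The HES and HEY class C site CACGCG (9.27% of promoters) and the E box CACGTG (7.15%) were found in none of them.

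Around Hes1, a gene of 2.44 kb at chr16:30065357-30067796, the doxycycline list held 7 peaks within 300 kb and the untreated list 0. Over all 21887 protein-coding genes, a window of this size held at least 1 doxycycline summit for 60.9% and at least 1 untreated summit for 60.7%, with a median of 1 peak in each list. At least 7 doxycycline peaks lay within 300 kb of 87 genes (0.397%), and 35 of those genes (0.160%) had 0 untreated peaks in the same window. Neighbouring genes share peaks, and the 87 genes fall into 17 loci over 600 kb apart and the 35 into 8. The nearest untreated summit to Hes1 lay 1220 kb away. Hes1 was chosen for this pattern, and nothing is read from its place among all genes.

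**Figure D1:**
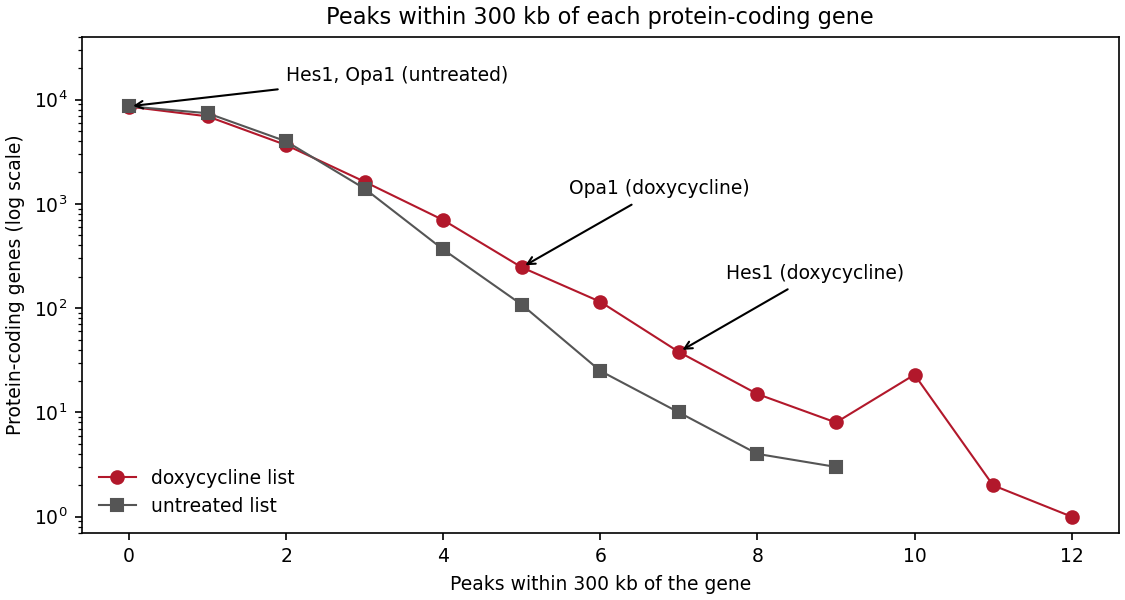
Number of protein-coding genes (log scale) by the number of peaks within 300 kb, for the doxycycline list (circles) and the untreated list (squares). Hes1 with 7 doxycycline peaks and Opa1 with 5 are marked, and both genes are among those with 0 untreated peaks.

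The strongest of the 7 peaks did not lie at the Hes1 gene itself. It lay 56.4 kb below the low-coordinate end of Hes1 (chr16:30008791-30009133), inside 4632428C04Rik and 335 bp from the start of that gene. The fold enrichment at its summit was 19.6, with 26 fragments in the pileup and a −log10 q of 34.2 (exact 95% Poisson interval of the pileup 17.0 to 38.1). Fold enrichment, p and q are the authors' values from the peak caller, and the pileup, the number of fragments over the summit, was worked back from them. By −log10 q it ranked 38 and by fold 19 among the 3640 doxycycline peaks. Hes1 was its nearest protein-coding gene.

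Next to the gene, 3 doxycycline peaks fell within a stretch of 7.49 kb that has Hes1 in its middle. The first (chr16:30063143-30064193) was 1051 bp wide and had 4 summits, at 2.12, 1.87, 1.52 and 1.25 kb from the low-coordinate end of Hes1. Their folds were 7.31, 8.04, 8.04 and 6.58 in that order, and their pileups 9, 10, 10 and 8 fragments. The highest of these pileups has an interval of 4.80 to 18.4 and the lowest one of 3.45 to 15.8. These intervals overlap, and differences among the 4 summits were not tested. Only 12 doxycycline peaks had 4 or more summits, and by width this peak ranked 10 of 3640, against a median width of 160 bp. The second peak (chr16:30066614-30067009) lay inside Hes1, 1.42 kb from its low-coordinate end, at 8.20-fold with 12 fragments (6.20 to 21.0). Its local expectation, the number of fragments the peak caller expected there, was 0.585, the highest among the 14 peaks, where the lowest was 0.368. The third (chr16:30070074-30070631) lay 2.40 kb beyond the high-coordinate end of Hes1 at 7.31-fold with 9 fragments (4.12 to 17.1). Its summit was inside Gm32998, a long non-coding RNA gene whose low-coordinate end is next to Hes1. The summit lay 245 bp from the high-coordinate end of Gm32998.

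**Figure D2:**
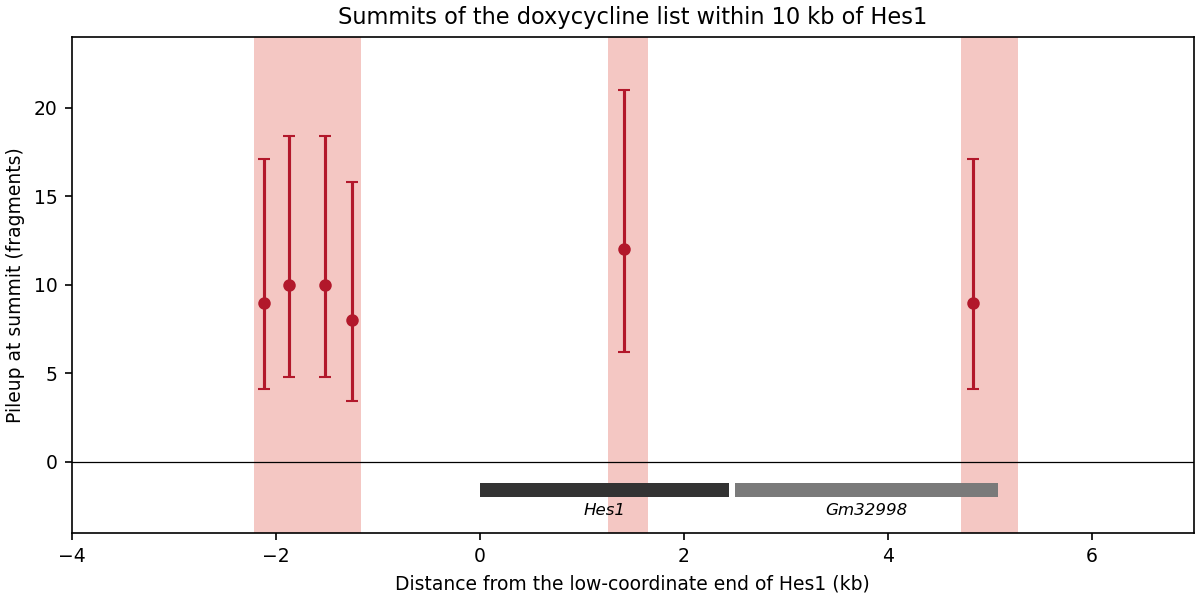
Pileup in fragments at the 6 doxycycline summits within 10 kb of Hes1, against distance from the gene's low-coordinate end in kb. Points are summits, bars are exact 95% Poisson intervals, shaded bands are the called peaks and boxes below are genes. The points lie between 8 and 12 fragments with intervals that all overlap.

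The distal peak, with 26 fragments, stood above the best summits of the 3 peaks at the gene, with 10, 12 and 9. Its interval of 17.0 to 38.1 fragments overlapped theirs in part (4.80 to 18.4, 6.20 to 21.0 and 4.12 to 17.1). Overlap of intervals does not show that counts are alike, and the difference was not tested. At least 3 doxycycline peaks within 10 kb were found at 65 protein-coding genes (0.297%). Of the 7926 genes at most 10 kb long, a limit chosen after the values were seen, 4 (0.0505%) had that many, Hes1 included, and nothing is read from this for Hes1. For a gene to have at least 1 doxycycline summit within 10 kb was more common (9.55%), as was a summit inside the gene (6.16%).

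The other 3 peaks within 300 kb of Hes1 were weaker. One, 23.6 kb beyond the high-coordinate end (chr16:30091306-30091454), reached 5.12-fold with 6 fragments (2.20 to 13.1). The last 2, at 169 and 175 kb (chr16:30236395-30236555 and chr16:30242750-30242918), had 4.09-fold and 4.39-fold enrichment with 5 fragments each (1.62 to 11.7), the smallest pileup in the doxycycline list. Both were closer to Cpn2, which encodes a subunit of the blood enzyme carboxypeptidase N, at 19.9 and 13.6 kb. With −log10 q of at least 5, the 4 peaks at 56.4 kb and within 10 kb were left of the 7. A doxycycline summit of that strength lay in such a window for 31.2% of all genes. In the whole lists, 1211 of 3640 doxycycline and 412 of 4379 untreated peaks reached it. The nearest doxycycline summit outside the 300 kb limit lay 306 kb away at 6.58-fold, and belongs to the peaks beside Opa1.

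**Figure D3:**
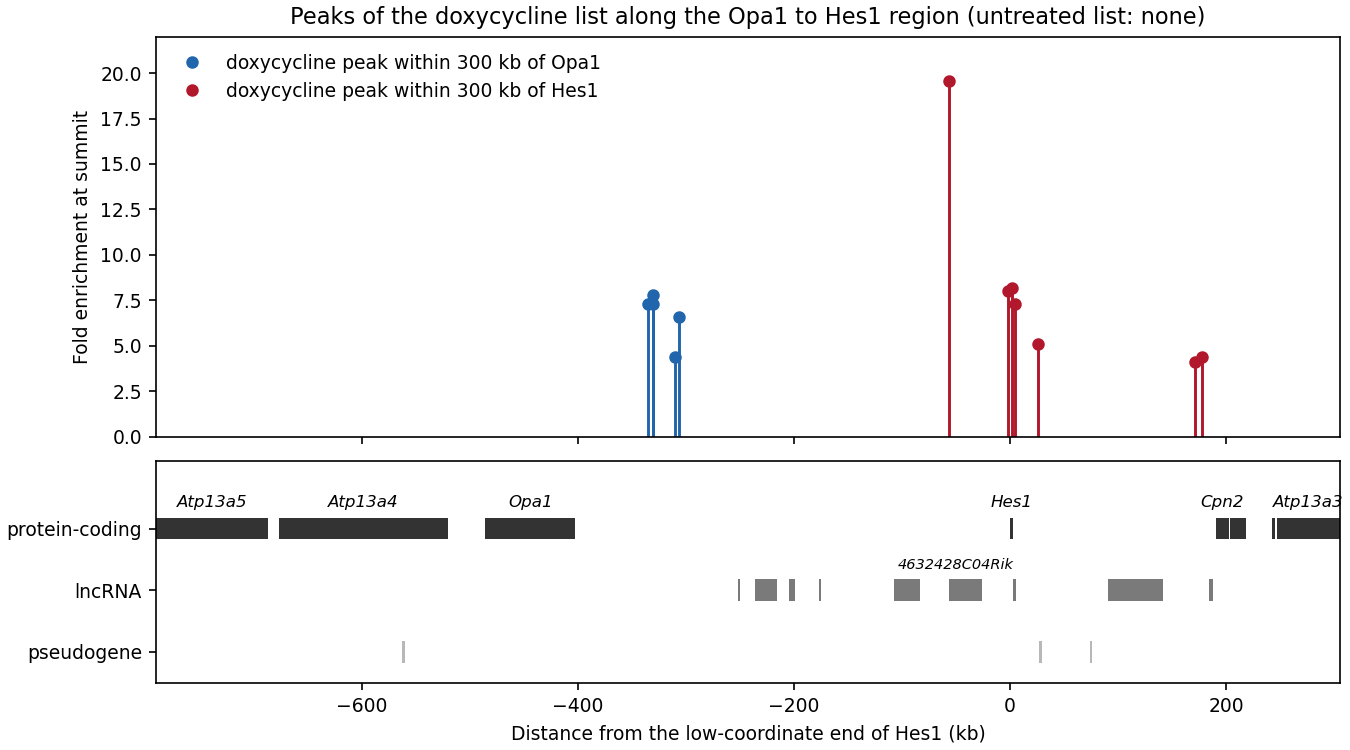
Fold enrichment at the summit of the 12 doxycycline peaks within 300 kb of Hes1 (7, red) or Opa1 (5, blue), against distance from the low-coordinate end of Hes1 in kb, with protein-coding, long non-coding RNA and pseudogene intervals below. The peaks fall in groups beside Opa1, at Hes1 and near Cpn2, with single peaks 56.4 kb below and 23.6 kb above Hes1, and the untreated list had 0 peaks in this stretch.

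Opa1 (chr16:29579281-29663127, 83.8 kb long, plus strand) had 5 doxycycline peaks within 300 kb and 0 untreated ones. At least 5 doxycycline peaks were found at 448 genes (2.05%), and 175 of all genes (0.800%) had at least 5 and 0 untreated peaks. None of the 5 lay inside Opa1 or within 50 kb of it. They formed a stretch of 29.1 kb beginning 67.2 kb beyond the 3′ end of Opa1, in the 402 kb between Opa1 and Hes1, and Opa1 was the nearest protein-coding gene of each. At 67.2 kb (chr16:29730282-29730592) the fold was 7.31 with 9 fragments. At 71.9 kb (chr16:29734889-29735112) it was 7.27 with 9 fragments. At 72.3 kb (chr16:29735291-29735525) it was 7.80, the highest of the 5, with 10 fragments (4.80 to 18.4).

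The remaining pair lay closer to Hes1 than the others of this stretch. At 91.8 kb (chr16:29754819-29754987) the fold was 4.39 with 5 fragments (1.62 to 11.7), and at 96.1 kb (chr16:29759195-29759367) it was 6.58 with 8 fragments (3.45 to 15.8). The Poisson intervals of all 5 overlap. No annotated gene, coding or non-coding, held any of these summits. The nearest non-coding gene was the long non-coding RNA gene Gm46567, between 54.3 and 83.2 kb away. The nearest untreated summit to Opa1 was 734 kb away, and the nearest doxycycline summit outside the limit, at 346 kb, was the 19.6-fold peak of the Hes1 locus. A summit this far from either gene is not assigned to one of them by its position, and the stretch is only 306 to 335 kb from Hes1.

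Heyl was the only one of the 5 relatives with a peak in the window of the rule. This gene on chromosome 4 (chr4:123233556-123249870) encodes a HEY-type repressor downstream of Notch. It had 2 doxycycline peaks within 50 kb and 0 untreated ones, where windows of that size held a summit for 20.0% (doxycycline) and 18.8% (untreated) of all genes. The stronger peak (chr4:123233492-123233663) covered the low-coordinate end of the gene, with its summit 27 bp inside. It reached 8.86-fold and a −log10 q of 9.58, with 12 fragments (6.20 to 21.0), and ranked 334 by −log10 q in its list. The weaker peak lay 37.1 kb away (chr4:123196357-123196507) at 4.39-fold with 5 fragments (1.62 to 11.7). It was 1.73 kb from Hpcal4, a gene of the neuronal calcium sensor family, and so was not nearest to Heyl. Only the stronger peak had a −log10 q of at least 5. The next doxycycline summit lay 237 kb from Heyl and the next untreated one 206 kb.

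Hes5, Hes6, Hey1 and Hey2 had 0 summits within 50 kb in both lists. Hes5, a Notch-driven repressor of neural progenitors, had its nearest doxycycline summit at 228 kb (9.50-fold) and its nearest untreated one at 222 kb (4.72-fold). Hes6, a HES protein that opposes HES1, had its nearest summit in each list at 339 kb, at 5.85-fold with doxycycline and 5.50-fold without. Hey1, expressed in atrial precursors, had a doxycycline summit 70.8 kb away at 5.85-fold with 7 fragments, and its nearest untreated one at 692 kb. Hey2, expressed in ventricular precursors, differed from Hey1 in that the untreated summit was the nearer, at 71.3 kb (3.93-fold, 4 fragments) against 216 kb (4.39-fold, 5 fragments) for the doxycycline list. These values are each on their own list's scale. The smallest listed pileups were 5 (doxycycline) and 4 (untreated) fragments, so weaker enrichment at these genes was not detectable in them.

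Among themselves the 14 peaks ranged from 4.09-fold to 19.6-fold with a median of 7.29, where the whole doxycycline list had a median of 5.50. Pileups ran from 5 to 26 fragments with a median of 9, against 7 in the list. Widths ran from 149 to 1051 bp with a median of 198.5 bp, and 9 of the 14 had a −log10 q of at least 5, as did 33.3% of all doxycycline peaks. Of the 14 summits, 2 were inside a protein-coding gene (Hes1 and Heyl), 2 inside a long non-coding RNA gene and the other 10 in neither. A gene among the 7 was the nearest protein-coding gene for 11 of the 14. None of the 14 overlapped an untreated peak by as much as 1 bp, which is the usual case, since 2.01% of all 3640 doxycycline peaks did, and the nearest untreated summit to any of them was between 187 and 1400 kb away. The lowest fold listed at background expectation was 3.93 in the untreated list, so weaker enrichment at these sites in untreated cells was not detectable.

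**Figure D4:**
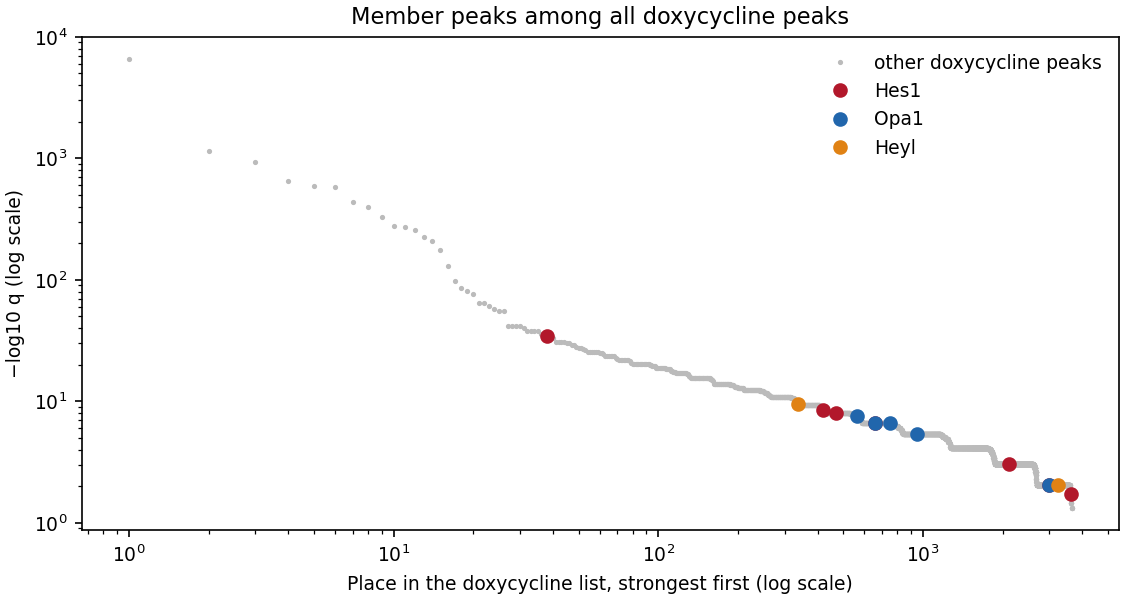
Value of −log10 q (log scale) of all 3640 doxycycline peaks against their place in the list (log scale), with the peaks of Hes1, Opa1 and Heyl in colour and all others in grey. The strongest Hes1 peak is at rank 38 and the Heyl peak at the low-coordinate end of its gene at rank 334, and the weakest members lie near the end of the list.

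The genes most like Hes1 were taken by the number of peaks within 300 kb in the 2 lists. Besides Hes1, 18 genes also had 7 doxycycline and 0 untreated peaks, several of them neighbours. Genes over 600 kb apart were kept, and ties were ordered by how close their highest doxycycline −log10 q was to that of Hes1. The nearest was Ctsd, which encodes the lysosomal protease cathepsin D, with a strongest peak of 15.3-fold at 70.2 kb. It was followed by BC004004 (12.4-fold, 187 kb away), Anp32e, a histone chaperone gene (11.8-fold, 270.0 kb) and Pars2, a mitochondrial prolyl-tRNA synthetase gene (7.02-fold, 88.1 kb). Nrg2, which encodes a neuregulin, came next with 6 doxycycline and 0 untreated peaks and a strongest peak of 18.3-fold at 77.3 kb. As at Hes1, the strongest peak of each of these 5 genes lay outside the gene.

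The wider Notch pathway was described with a list of 44 genes: receptors, ligands, the nuclear complex, processing enzymes, glycosyltransferases, regulators, other HES-type repressors and TLE corepressors. Of these, a summit lay within 50 kb of 19 (43.2%) in the doxycycline list and of 15 (34.1%) in the untreated one, beside 20.0% and 18.8% of all genes. Windows include the whole gene, so a longer gene has a wider one. The all-gene shares are not matched for gene length, and the difference was not tested. Both lists had a summit at 7 of them, 12 had one in the doxycycline list only and 8 in the untreated list only. With −log10 q of at least 5, the counts were 7 and 3 of the 44 genes. Of all 21887 genes, 1842 (8.42%) and 432 (1.97%) had such a summit. The median number of doxycycline peaks per gene was 0 over the list, as over all genes, and 1 or more in the nuclear complex (1.5) and the corepressors (1). The strongest doxycycline peaks, 18 distinct ones for the 19 genes, ran from 4.17-fold to 9.50-fold with a median of 5.12. Of the 19 genes, 8 had their strongest summit inside the gene. Over all genes, 1349 had any doxycycline summit inside the gene, of 4388 with one within 50 kb. In 10 of the 19, the listed gene was also the nearest protein-coding gene of its strongest peak. No all-gene share was computed for this, and nothing is read from either count.

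**Figure D5:**
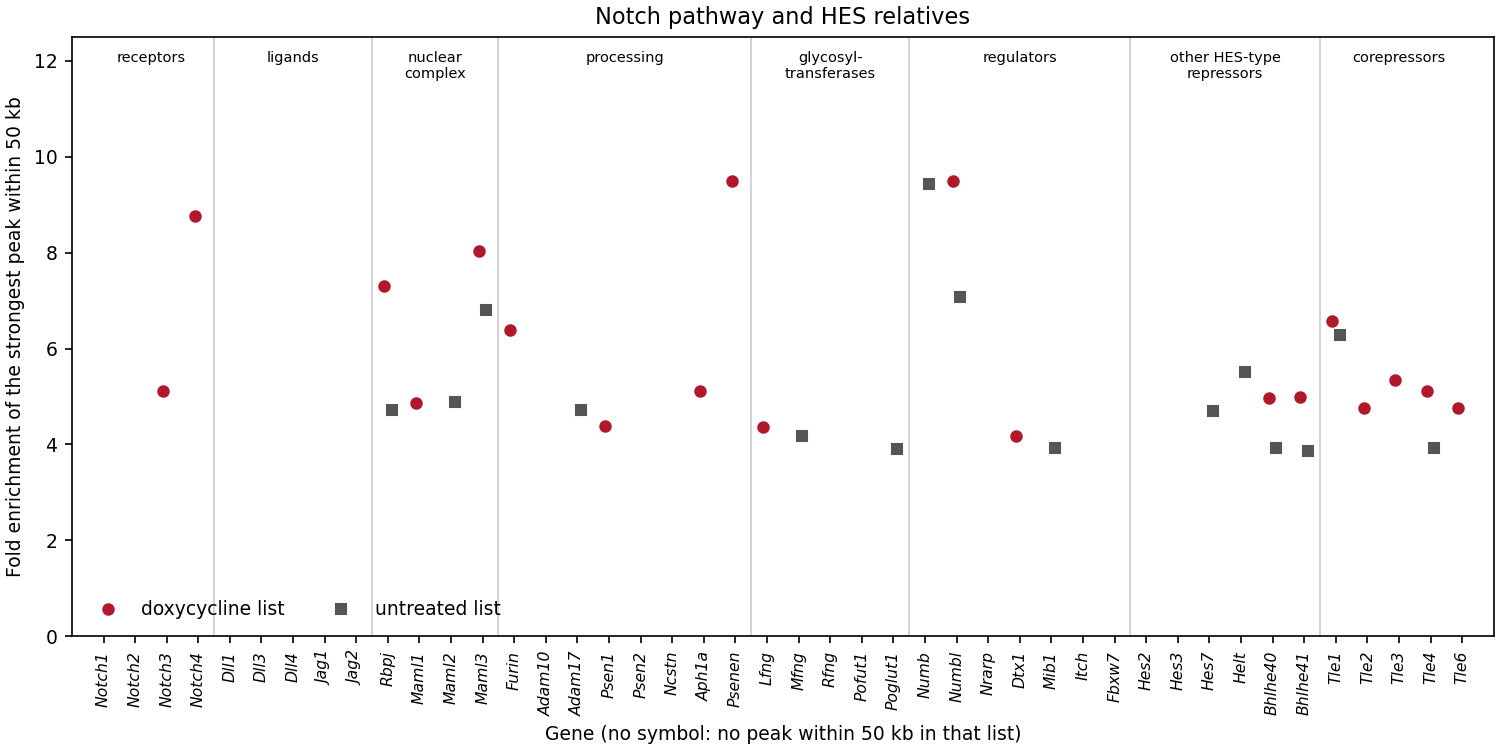
Fold enrichment of the strongest peak within 50 kb of each of 44 Notch pathway genes, by role, in the doxycycline list (circles) and the untreated list (squares). No symbol means no listed peak, and folds are on each list's own scale. All 5 ligand genes are empty, and all 5 corepressor genes have a doxycycline peak.

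By role, the counts below stand beside 20.0% (doxycycline) and 18.8% (untreated) of all genes with a summit within 50 kb, and each group is small. Of the 4 receptor genes, Notch3 and Notch4 had a doxycycline summit and none had an untreated one. Notch4, a receptor of blood vessel endothelium, had one 4.61 kb away at 8.77-fold with 11 fragments, nearest to Pbx2. All 5 ligand genes (Dll1, Dll3, Dll4, Jag1 and Jag2) had 0 summits in both lists. In the nuclear complex, doxycycline summits lay near 3 of 4 genes and untreated ones near 3. Maml3, a coactivator of the Notch complex, had its strongest summits inside the gene at 8.04-fold with doxycycline (10 fragments) and 6.81-fold without (8 fragments). Rbpj, which encodes the DNA-binding protein itself, also had both inside the gene, at 7.31-fold (9 fragments) and 4.72-fold (5 fragments), and is named here after its values were seen.

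Beside the same all-gene shares of 20.0% and 18.8%, summits lay near 4 (doxycycline) and 1 (untreated) of 8 processing genes. The strongest was at Psenen, which encodes a gamma-secretase subunit, at 9.50-fold with 12 fragments and 28.6 kb away, where Arhgap33 was the nearest gene. Glycosyltransferases had 1 of 5 genes with a doxycycline and 2 with an untreated summit. Regulators had 2 and 3 of 7. Numbl, a Notch inhibitor of the Numb family, had a doxycycline peak 3.70 kb away at 9.50-fold with 12 fragments and an untreated one 33.4 kb away at 7.07-fold. Numb, its relative, named here after its values were seen, had 0 doxycycline peaks and an untreated one inside the gene at 9.43-fold with 11 fragments, the highest fold among the pathway's untreated peaks. Other HES-type repressors had 2 and 4 of 6, and both of those with a doxycycline summit (Bhlhe40 and Bhlhe41) had an untreated one too.

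The doxycycline list had a summit within 50 kb of all 5 corepressor genes, and the untreated list had one near 2 of them, beside 20.0% and 18.8% of all genes. The genes of this group are named after their values were seen, and their peaks were of modest height. Tle2 and Tle6 share 1 peak, that shown above, which lies across the start of Tle2 (chr10:81575188-81575331) with its summit 32 bp before the start. Its fold was 4.77 with 6 fragments. Tle3 had 5.34-fold with 7 fragments and Tle4 5.12-fold with 6, each inside the gene. Tle1 had the strongest, 6.58-fold with 8 fragments (3.45 to 15.8), inside the gene at chr4:72170288-72170424. An untreated peak covered the same 137 bp, with its summit 6 bp away, at 6.29-fold with 7 fragments (2.81 to 14.4). Each value is on its own list's scale, with local expectations of 0.368 (doxycycline) and 0.272 (untreated). Of the 19 genes, Tle1 was the only one whose strongest doxycycline peak overlapped an untreated peak, beside 2.01% of all doxycycline peaks.

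Genes that act with OPA1 in mitochondrial fusion and fission were counted apart. Of 7 (Mfn1, Mfn2, Oma1, Yme1l1, Dnm1l, Fis1 and Mff), 1 (14.3%) had a summit within 50 kb, in both lists, which is near the 20.0% and 18.8% of all genes. This was Mfn1, which encodes an outer membrane fusion GTPase, at 5.12-fold (37.2 kb away) and 4.72-fold (17.6 kb away), both nearest to Gnb4.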

How the data were processed

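The data are 2 peak lists, 1 per condition, on mm10. The tools were MACS2 2.1.1, SAMtools 1.5 and Bowtie2 2.3.2, per the submitters' processing notes. Not given in the sources used here are the settings, the use of the inputs, fragment totals and whether the 2 pull-downs of a condition were pooled. Groups follow the titles, which name GLI3R, and not the treatment text, which names GLI1. The authors deposited a fold enrichment (a ratio), a −log10 p and a −log10 q per peak, and a score (10 times −log10 q without decimals) that was not used.

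Rows sharing an interval were merged, keeping the best summit (3725 doxycycline rows to 3640 peaks, 4428 untreated rows to 4379). With fold taken as (pileup + 1) / (expectation + 1) and p as a Poisson upper tail, whole-number pileups gave −log10 p to within 0.01 for 99.7% of doxycycline and 99.8% of untreated peaks. Median pileups were 7 and 5 fragments, and the most common local expectations were 0.368 and 0.272. Poisson intervals (95%) cover counting error only. Distances run from the summit to the interval of 21887 protein-coding genes (RefSeq, GRCm38.p6) and coordinates count from 1. Tested on simulated data, 100% of 2000 pileups were recovered, and counts in 300 kb windows of 200 of 21887 genes matched a direct count in 100%.

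The members and gene lists were chosen with earlier results of these data known, so no test was run. Named genes were the 7 members, the nearest protein-coding gene of each member peak, the 4 pathway genes with the strongest doxycycline peak and the 5 genes most like Hes1, with others marked where named. Alternatives were other windows, a −log10 q of at least 5, all rows, other overlaps and distance from the gene start. Software was Python 3.11.15, scipy 1.17.1, numpy 2.4.6, matplotlib 3.10.9 and pandas 2.3.3.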

Additional observations from a re-analysis of the deposited data

How the results depend on the processing

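No paired analysis was possible because the pull-downs of a condition share 1 list without replicate columns, and none could be left out. Of the values recomputed, 33 stayed within 1.5 times of the value reported and 13 did not. Most of the 33 were counts of 0 that stayed 0. A stricter setting or a smaller window cannot change a count of 0, so zeros under such settings say little about stability. Some settings could have raised a 0. Within 500 kb, Hes1 and Opa1 still had 0 untreated peaks. With summits within 500 bp, 0 member peaks were found in both lists. For Hes1, 7 doxycycline peaks became 4 with −log10 q of at least 5 and 13 within 500 kb, and for Opa1, 5 became 10 within 500 kb, where the windows of both genes overlap. For the 5 relatives, 2 doxycycline peaks became 1 with −log10 q of at least 5, within 25 kb, and with the nearest protein-coding gene only, a setting chosen after seeing the data, while 0 untreated peaks became 1 within 100 kb. Of the 44 pathway genes, 19 with a doxycycline summit became 7 with −log10 q of at least 5, 10 within 10 kb and 11 within 25 kb, and 15 with an untreated summit became 3, 9 and 9. Fewer peaks or smaller windows give fewer by construction. Distance from the gene start was not run for Hes1, whose strand is not in the tables used. Pileups of 5 to 12 fragments at 13 of the 14 peaks limit any ranking among them.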

Other observations

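Of the 65 protein-coding genes with at least 3 doxycycline peaks within 10 kb, 4 were at most 10 kb long, a limit chosen after the values were seen, out of 7926 genes of that length. Besides Hes1 these were Mcl1, an anti-apoptotic BCL2 relative, Cd24a, which encodes a surface glycoprotein, and Kiss1r, the kisspeptin receptor gene. Each had 3 doxycycline peaks within 10 kb, and Kiss1r also had 1 untreated peak there while Mcl1, Cd24a and Hes1 had 0.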
